A study of Mus musculus with 4 samples.

Results

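Runx3 peaks at the edges of protein-coding genes were taken from a map of Runx3 occupancy in CD8 T cells of the mouse spleen, made by chromatin immunoprecipitation (ChIP) and by CUT&RUN. A ChIP peak was chosen when it lay on chromosomes 1 to 19 or X, overlapped a CUT&RUN peak by at least 1 bp, and had its summit within 1 kb of either edge of a RefSeq protein-coding gene. These peaks are called shared edge peaks here. There were 3320 of them among the 13166 ChIP peaks (25.2%, exact 95% Clopper-Pearson interval 24.5 to 26), and they overlapped 3528 of the 15891 CUT&RUN peaks. They made up 38.2% of the 8694 shared ChIP peaks on those chromosomes, and 70% (68.7 to 71.3) of the 4742 ChIP peaks at protein-coding edges. The overlap, the distance to an edge and the presence of a peak in both lists chose the peaks, so those shares are a description.

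All cells came from adult wild type mice and were isolated from spleen with magnetic beads against CD8a. The ChIP library was made from 50000000 frozen cells of 5 mice, and the CUT&RUN library from 150000 fresh cells of 1 mouse. Both used the same rabbit anti-Runx3 serum at 1 in 200 and 12 PCR cycles. The CD8a beads may also take up other cells that carry CD8a, and the 5 mice of the ChIP library cannot be told apart. Of the 4 libraries in the series, the whole cell extract was the background against which ChIP peaks were called, and the CUT&RUN library with normal rabbit serum was not analysed here. Each assay had 1 library, so no comparison below has a replicate check or a p-value. After duplicate removal, 9532996 ChIP and 14068364 CUT&RUN fragments were left. A pileup is the number of these fragments over a summit, and its interval is an exact 95% Poisson interval. All intervals cover counting error only and not variation between libraries, since each assay had 1 library. Sizes of pileups were not compared between the assays, because depth, fragment selection and peak calling all differed. Only the order of peaks was, by rank correlation and by the sum of ranks.

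Runx3 belongs to the RUNX family of transcription factors. It binds DNA through its Runt domain as a heterodimer with Cbfb, at short sequences read as TGTGGT or TGCGGT on one strand and ACCACA or ACCGCA on the other. In CD8 T cells it is known for silencing Cd4, for supporting Cd8 expression and for driving the cytotoxic programme, and it can recruit corepressors of the Groucho family. Promoters of broadly expressed genes are often rich in the dinucleotide CpG and carry sites for the SP/KLF, ETS and NF-Y factors, while promoters of many tissue-restricted genes are CpG-poor.

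The DNA under strong shared peaks just upstream of gene starts is shown first. These are the best-ranked such peaks with TGTGGT or TGCGGT, on either strand, within 50 bp of the ChIP summit. The presence of a word was thus fixed by the choice. Of the 100 best-ranked peaks upstream of a start, 56 had a word this close. Each line gives the bases within 50 bp of a ChIP summit, cut at the start of the gene and at the edge of the RefSeq promoter window (GRCm38.p6, the mm10 build). They are written 5′ to 3′ on the strand of the gene. The capitals mark the words TGTGGT and TGCGGT and their reverse complements, so a word in capitals may lie on either strand.
Runx3, chr4:135120475-135120575, plus strand: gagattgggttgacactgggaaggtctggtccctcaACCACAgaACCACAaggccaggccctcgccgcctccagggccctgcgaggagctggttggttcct
Gpn2, chr4:133584251-133584351, plus strand: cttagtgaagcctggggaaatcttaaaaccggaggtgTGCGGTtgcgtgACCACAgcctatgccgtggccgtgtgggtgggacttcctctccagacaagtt
Tnrc6b, chr15:80711223-80711312, plus strand: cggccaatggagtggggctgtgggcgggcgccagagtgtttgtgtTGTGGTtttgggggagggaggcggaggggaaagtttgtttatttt
Copg1, chr6:87887690-87887786, plus strand: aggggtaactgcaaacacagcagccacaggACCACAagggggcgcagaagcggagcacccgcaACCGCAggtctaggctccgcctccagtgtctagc
Zfp36l1, chr12:80113099-80113199, minus strand: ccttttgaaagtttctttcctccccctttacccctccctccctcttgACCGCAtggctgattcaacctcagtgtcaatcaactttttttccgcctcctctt
Nub1, chr5:24685577-24685677, plus strand: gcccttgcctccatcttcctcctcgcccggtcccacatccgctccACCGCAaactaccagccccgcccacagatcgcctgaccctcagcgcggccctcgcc
BC005624, chr2:30982097-30982191, minus strand: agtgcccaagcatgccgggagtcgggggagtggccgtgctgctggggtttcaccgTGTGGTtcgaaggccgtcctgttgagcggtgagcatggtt
Hat1, chr2:71389184-71389259, plus strand: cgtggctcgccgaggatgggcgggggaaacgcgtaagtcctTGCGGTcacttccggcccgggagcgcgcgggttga
Both words occur, on both strands. In the Runx3 promoter, ACCACA stood 2 times side by side. The copy nearer to the ChIP summit was centred 3.5 bp from it but 81.5 bp from the CUT&RUN summit. The Gpn2 promoter held a TGCGGT and an ACCACA, and the latter was centred 1.5 bp from the ChIP summit and 3.5 bp from the CUT&RUN summit. The word in the Zfp36l1 promoter was centred 0.5 bp from the ChIP summit and 7.5 bp from the CUT&RUN summit. In the Hat1 promoter, the TGCGGT was centred 6.5 bp from the ChIP summit but 67.5 bp from the CUT&RUN summit. A match is a description of the letters and does not show a bound site. The best-ranked peaks near AI467606 and Pgap2 also had a word this close, and their sequence is not printed because the window lay inside the span of the gene.

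Strong shared edge peaks without either word anywhere in the promoter window are shown for contrast.
Usp36, chr11:118290344-118290444, minus strand: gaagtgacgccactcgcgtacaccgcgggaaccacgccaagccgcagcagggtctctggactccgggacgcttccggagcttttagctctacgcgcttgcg
Isca1, chr13:59769898-59769998, minus strand: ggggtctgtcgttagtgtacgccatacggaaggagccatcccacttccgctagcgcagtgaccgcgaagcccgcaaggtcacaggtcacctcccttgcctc
Myl6b, chr10:128498856-128498935, minus strand: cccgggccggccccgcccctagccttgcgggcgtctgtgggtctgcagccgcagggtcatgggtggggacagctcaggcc
These had ChIP pileups of 33 (22.7 to 46.3) at Usp36, 51 (38 to 67.1) at Isca1 and 37 (26.1 to 51) at Myl6b, and CUT&RUN pileups of 133, 88 and 96. The peaks printed above had ChIP pileups from 36 at BC005624 to 67 (51.9 to 85.1) at Copg1. The absence of the word says only that these letters are not in this window. The Isca1 window overlaps the span of a non-coding gene, Etohd2.

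Most shared edge peaks sat at gene starts. The side of the gene was not used to choose them. The nearest edge was a start for 2626 peaks and an end for 122, and for 572 the strand of the gene was not given by the tables. Of the 2748 peaks with a known strand, 95.6% (94.7 to 96.3) were at a start. The same share was 92.3% (90.6 to 93.8) of 1131 peaks at protein-coding edges found by ChIP alone, and 94.3% (93.2 to 95.3) of 1852 found by CUT&RUN alone. No test was made between these classes.

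Summits were centred on the start itself. The median ChIP summit lay 6 bp before the start (quartiles 98 bp before and 91 bp after), 51.6% lay within 100 bp and 75.2% within 250 bp. The CUT&RUN partner summits of the same starts had a median 27 bp before the start (104 bp before and 71 bp after). They lay before the start in 58% (56 to 59.9) of peaks, against 51.7% (49.8 to 53.6) of the ChIP summits. The fullest 50 bp bin was therefore just after the start in ChIP, with 16% of summits, and just before it in CUT&RUN, with 16.5%. Peaks at gene ends showed no such pile-up, with a median distance of 366 bp from the end and 18.9% (12.3 to 26.9) within 100 bp.

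**Figure D1:**
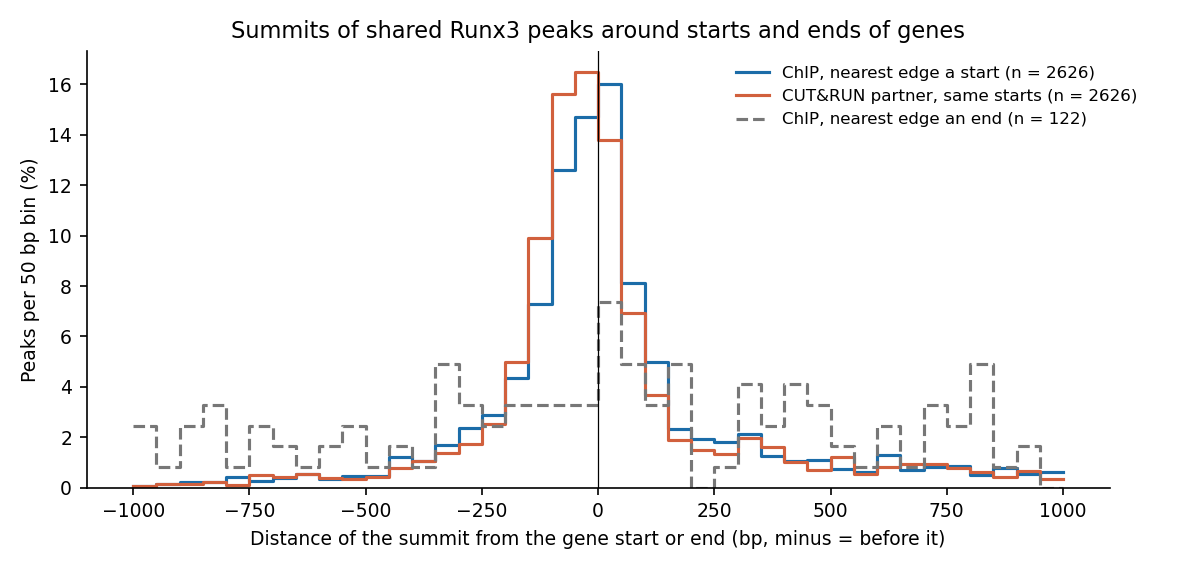
Distance of summits from the nearest gene start or end in bp (x axis, minus is before it) against the percent of peaks per 50 bp bin (y axis). The ChIP and CUT&RUN curves hold the 2626 shared edge peaks nearest to a start, and the dashed curve holds the 122 nearest to an end. Both start curves peak within 100 bp of the start, with the CUT&RUN curve shifted to the upstream side, and the end curve is flat by comparison.

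The limit of 1 kb cuts through a continuous range of distances. Just inside were Pkd1 (summit 1000 bp from the start, pileups of 16 in ChIP and 41 in CUT&RUN), Ect2 (998 bp, 12 and 25) and Arid1b (997 bp, 12 and 17). Just outside were Gm33851 (1001 bp, 8 and 45), Arid4a (1001 bp, 8 and 49) and Plin3 (1002 bp, 17 and 39). Few peaks were near the limit, since 57 of the 3320 shared edge peaks lay between 900 and 1000 bp.

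Genes with a shared edge peak numbered 3749 of the 21631 protein-coding genes on these chromosomes, or 17.3% (16.8 to 17.8). This share is the background for every gene list below. Any ChIP peak at an edge was found for 23.2% of genes, and any CUT&RUN peak for 27.5%. Among genes with a known strand, 17.2% of starts and 1.31% of ends had a shared peak within 1 kb. Nearly all genes had 1 such peak, 200 had 2 and 4 had 3. Those 4 were Vamp1, which encodes a vesicle SNARE protein, B9d2, a component of the ciliary transition zone, Letm2, a mitochondrial inner membrane protein, and Slc39a7, a zinc transporter. Of the peaks, 615 stood at edges of 2 genes and 11 at edges of 3 or more, so genes of a close pair can share a peak.

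Starts that face each other were filled more often. Of 17274 starts, 1158 lay head to head within 1 kb of another start. A shared peak stood at 523 of them (45.2%, 42.3 to 48.1) and at 2443 of the other 16116 starts (15.2%, 14.6 to 15.7). A peak within 1 kb of both starts counts for both, and the part of this in the difference was not tested. The 265 peaks within 1 kb of both starts of a pair were no higher than the other peaks at starts. The median pileups were 13 and 13 in ChIP and 28 and 30 in CUT&RUN. The X chromosome had few, with a shared edge peak at 44 of 966 genes (4.55%, 3.33 to 6.07) against 3705 of 20665 autosomal genes (17.9%, 17.4 to 18.5). Autosomes ranged from 13.5% of genes on chromosome 14 to 22.4% on chromosome 12. The X held 1.36% of the shared edge peaks and 1.08% of the other shared peaks.

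Shared edge peaks also went with the CpG content of the promoter. A promoter of 300 bases was called CpG-rich when its CpG ratio, the number of CpG observed over that expected from its C and G, was at least 0.6. A shared edge peak was found at 2662 of 8890 genes with a CpG-rich promoter (29.9%, 29 to 30.9) and at 461 of 8384 with a CpG-poor promoter (5.5%, 5.02 to 6.01). Genes with CpG-rich promoters therefore made up 85.2% of those with a shared edge peak and a promoter sequence. Among the promoter windows themselves, 90.3% of those that held the summit of a shared edge peak were CpG-rich, against 48.1% of all windows and 35.7% of those without a peak. The median GC content was 63.3% and 56.7% in the first and second of these groups. No expression data were used here, so how many of the genes without a peak are silent in these cells was not tested.

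Shared edge peaks were of ordinary height. Their ChIP pileups ran from 7 to 193 with a median of 13 (quartiles 10 and 18), and their CUT&RUN pileups from 8 to 180 with a median of 29 (20 and 45). The fold enrichment given by the authors' peak caller ran from 3.53 to 41.9 in ChIP, with a median of 6.59, and from 5.28 to 46.1 in CUT&RUN, with a median of 14.8. Shared peaks inside genes had medians of 14 in ChIP and 34 in CUT&RUN, and shared intergenic peaks 15 and 37. At protein-coding edges, the 1422 peaks found by ChIP alone had a median ChIP pileup of 10 (8 and 12). Shared edge peaks were somewhat less frequent among the top 10% of the ChIP list, which held 386 of them (11.6%, 10.6 to 12.8) against 874 of the 5374 other shared peaks (16.3%, 15.3 to 17.3). In the top 10% of the CUT&RUN list there were 342, and 152 were in the top 10% of both lists.

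The assays placed their summits further apart at protein-coding edges than elsewhere. The median distance between the ChIP and CUT&RUN summits was 46 bp (20 and 91) for shared edge peaks, 34 bp at edges of non-coding genes only, 31 bp inside genes and 29 bp in intergenic shared peaks. The summits were within 50 bp of each other in 53.1% (51.4 to 54.8) of shared edge peaks and in 70% of the intergenic ones. The gap was present at every height: the medians were 58 bp against 40 bp for other shared peaks at ChIP pileups of 7 to 9, 52 against 34 at 10 to 13, 44 against 29 at 14 to 19, and 37 against 25 at 20 or more. Shared edge peaks were also wider, with a median ChIP width of 332 bp (230.8 and 465) against 297 bp inside genes and 304.5 bp between genes. The part of width in the distance between summits was not tested. Across peaks, the ChIP and CUT&RUN pileups had a Spearman correlation of 0.42 over the 3320 shared edge peaks and of 0.58 over 5292 other shared peaks outside regions of high background. Peaks of 1 library share its depth and base composition, so these are descriptions.

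**Figure D2:**
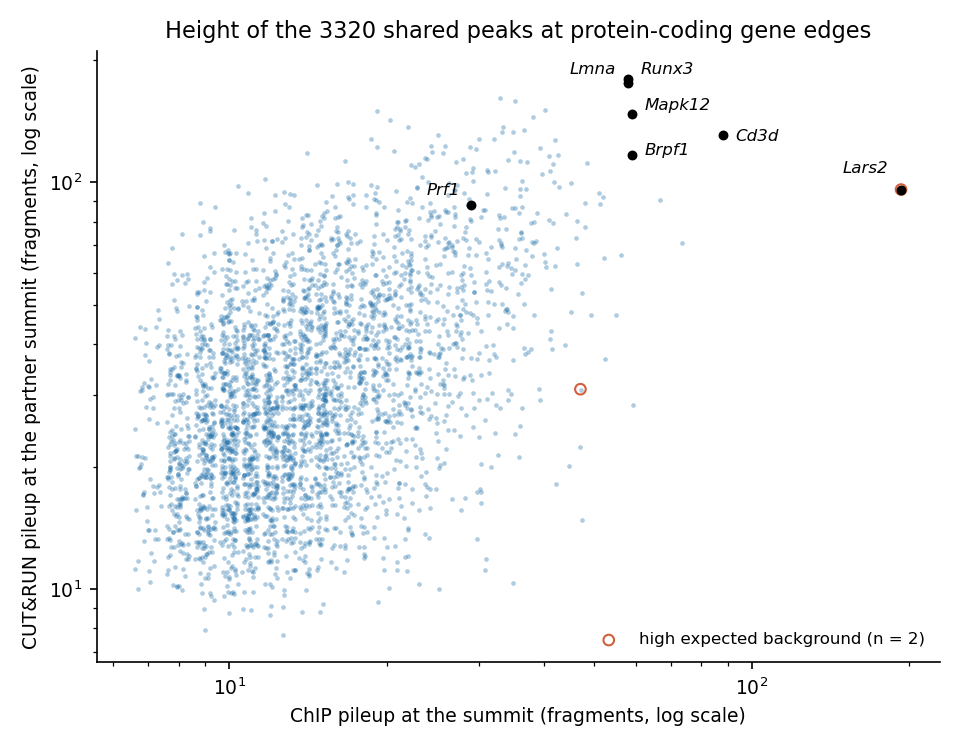
ChIP pileup (x axis) against CUT&RUN pileup (y axis), both in fragments on log axes, with 1 point for each shared edge peak and a small random shift so that equal whole numbers do not hide each other. Black points are named peaks, and open circles are the 2 peaks with a high expected background. The named peaks lie towards the upper right, and most points lie near the medians of 13 and 29.

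The 10 peaks with the best sum of ranks in both lists joined T cell genes and widely expressed genes. First was Mapk12, which encodes the stress kinase p38 gamma, where the summit lay 969 bp before the end of the gene at chr15:89131234-89131833, with 59 ChIP fragments (44.9 to 76.1) and 147 CUT&RUN fragments (124.2 to 172.8) over the summits. Second was Runx3 itself, 120 bp before the start at chr4:135120165-135120777, with pileups of 58 (44 to 75) and 180 (154.7 to 208.3). The CUT&RUN value at Runx3 was the highest among the 3320. Lmna, the gene of lamins A and C, followed with 58 (44 to 75) and 176 (151 to 204), 302 bp before its start.

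Cd3d, a chain of the CD3 complex that signals for the T cell receptor, had its peak 382 bp before its end, with pileups of 88 (70.6 to 108.4) in ChIP and 131 (109.5 to 155.4) in CUT&RUN. The ChIP fold of 41.9 at Cd3d was the highest among the shared edge peaks. AI467606 had pileups of 40 and 151. Between Gpatch3 and Gpn2, a gene of an RNA polymerase assembly GTPase, a summit 59 bp past the end of the first and 72 bp before the start of the second had pileups of 51 and 94. Kcnn4, the calcium-activated potassium channel that sustains calcium entry in activated T cells, had 38 (26.9 to 52.2) and 145 (122.4 to 170.6), 110 bp after its start. The remaining ones were Ccdc114 (42 and 127), Tnrc6b, a partner of Argonaute in silencing by miRNAs (48 and 112), and Brpf1, a scaffold of histone acetyltransferase complexes (59 and 117). In 3 of the 10, at Mapk12, Cd3d and Gpatch3, the nearest edge was the end of a gene, although ends held 3.67% of all shared edge peaks.

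The ChIP and CUT&RUN summits lay closer together at gene ends than at starts. The 122 peaks nearest to an end had summits a median of 30 bp apart, against 48 bp at starts. This was like the 31 bp of shared peaks inside genes and the 29 bp of intergenic ones. Their median pileups were 14.5 in ChIP and 35 in CUT&RUN, against 13 and 29 at starts. Of the peaks at ends, 17.2% (11 to 25.1) were in the top 10% of the ChIP list, against 11.3% (10.2 to 12.6) at starts. These intervals overlap. After Mapk12 and Cd3d, the best-ranked one was at Neurl3, a ubiquitin ligase gene, with the summit 303 bp past the end and pileups of 42 and 111. An end within 1 kb of a summit did not exclude a start: of 223 peaks with an end in reach, 109 also had the start of a gene in reach.

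In 2 shared edge peaks the expected background was high. Its measure here includes the constant that the peak caller adds to it in the fold. High means more than 2 times the median of this measure over the ChIP list, which was 2.12. At Lars2, the mitochondrial leucyl-tRNA synthetase gene, the highest ChIP pileup of all, 193, stood on 33.3 by this measure, with a fold of 5.82. At Asmt on the X chromosome a pileup of 47 stood on 13.6 by the same measure, with a fold of 3.53. Neither peak enters the ranking above.

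Of the cytokine receptor and JAK-STAT genes, 21 of 35 held a shared edge peak (60%, 42.1 to 76.1), against 17.3% of all protein-coding genes. Among their best-ranked peaks were those at Il6ra, the IL-6 receptor chain (349 bp before its end, pileups of 33 in ChIP and 83 in CUT&RUN) and at Ifnar1, a chain of the type I interferon receptor (36 bp after its start, 17 and 75). Ifngr2, of the interferon gamma receptor, had 22 and 55, and Il2ra, the alpha chain of the IL-2 receptor, had 16 and 72 at a summit 141 bp before its start. The gene lists, like the peaks, were chosen with earlier results of these data known, so their counts are descriptions and none was tested.

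T cell receptor signalling genes had 12 of 25 (48%, 27.8 to 68.7). After Cd3d, well-ranked peaks of the list were at Cd2, an adhesion receptor with a peak at each edge (pileups of 46 in ChIP and 80 in CUT&RUN at the higher), Cd28, the main costimulatory receptor (24 and 119), and Lck, the kinase that starts the signal (56 bp before its start, 22 and 76). Cd3d and Cd3e of the CD3 complex held a shared edge peak, and Cd3g and Cd247 did not. Costimulatory and inhibitory receptors had 5 of 18 (27.8%, 9.69 to 53.5, which includes the background). Of these, the inhibitory receptor Tigit had pileups of 25 and 85, Cd96 26 and 28, Cd27 9 and 62, Vsir 10 and 47, and Btla 15 and 22.

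CD8 and cytotoxicity genes had 3 of 20 (15%, 3.21 to 37.9), which is near the background and no result about the list. Prf1, which encodes perforin, had its summit 54 bp before the start with pileups of 29 (19.4 to 41.6) and 88 (70.6 to 108.4). Gzmb, which encodes granzyme B, had 24 (15.4 to 35.7) and 51 (38 to 67.1) at 45 bp before its start, and Nkg7, a granule protein gene, had 25 and 83 past its end. Cd8a, the gene of the protein bound by the beads, and Cd8b1, the other CD8 coreceptor gene, had none within 1 kb of an edge. Peaks deeper inside genes or between them are not counted here.

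Transcription factors of T cell identity and fate had 8 of 28 (28.6%, 13.2 to 48.7, which includes the background). They included 2 of the 3 RUNX genes and the partner subunit: beside Runx3, Runx1 had pileups of 28 and 54, 42 bp after its start, and Cbfb had 9 and 16, 11 bp from its start. Ikzf3, of the Ikaros family, had 28 and 72, Klf2, a factor of T cell quiescence and trafficking, 18 and 41, and Bach2, a repressor that restrains effector differentiation, 16 and 29. Tcf7, Tbx21, Eomes and Zbtb7b of this list held none. Of the Groucho genes and other corepressors, 6 of 12 (50%, 21.1 to 78.9) held a peak. Tle1 had 22 and 64, Rcor1 17 and 76, Tle4 13 and 87, and Hdac1 9 and 49, while Tle2, Tle3, Tle5, Hdac2, Hdac3 and Sin3a had none.

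Genes of migration, immunity and survival were counted next. Chemokine receptors and integrins had 5 of 22 (22.7%, 7.82 to 45.4, which includes the background of 17.3%). The highest was at Ccr7, the lymph node homing receptor, with 29 and 101, followed by Selplg with 15 and 57, S1pr1 with 15 and 26, Cxcr6 with 7 and 38, and Cxcr3 with 11 and 20. Class I MHC presentation genes had 6 of 12 (50%, 21.1 to 78.9). These 6 genes had Calr in first place with 27 and 82, then H2-D1 with 17 and 46, H2-K1 with 12 and 25, Nlrc5, the class I transactivator, with 9 and 26, and Psmb9 and Tap1, which share a peak, with 8 and 19. B2m, Erap1, Pdia3, Psmb8, Tap2 and Tapbp had none.

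Apoptosis genes had 9 of 18 (50%, 26 to 74), with Apaf1, the core of the apoptosome, at 37 (26.1 to 51) and 63 and Bcl2l11, which encodes the death inducer Bim, at 13 and 40. Interferon-stimulated genes had 5 of 20 (25%, 8.66 to 49.1), the best ranked at Irf9 with 20 and 36. The GIMAP genes, lymphocyte GTPases that lie in a cluster, had 2 of 8 (25%, 3.19 to 65.1), at Gimap7 (13 and 33) and Gimap5 (10 and 22). Gimap1, Gimap3, Gimap4, Gimap6, Gimap8 and Gimap9 had none. Cell cycle genes had 6 of 25 (24%, 9.36 to 45.1), led by Cdk4 with 21 and 85 and Pcna with 24 and 60. The intervals of the interferon-stimulated, GIMAP and cell cycle lists include the background of 17.3%.

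Genes of RNA processing and protein synthesis often held a shared edge peak. Splicing factors had 32 of 54 (59.3%, 45 to 72.4), RNA helicases of the DExD/H family 23 of 52 (44.2%, 30.5 to 58.7), and translation initiation and elongation factors 29 of 69 (42%, 30.2 to 54.5). Hnrnpul1 had its summit 1 bp after the start with pileups of 26 and 86, Srsf3, a serine- and arginine-rich splicing factor, had 35 and 37, and Sf3b2, of the U2 snRNP, 23 and 53. Among the helicases, Ddx21, which acts in ribosome synthesis, had 31 and 37, and Dhx16, a spliceosome helicase, 30 and 37. Eif2b5, a subunit of the exchange factor eIF2B, had 31 and 26, and Eef1a1, which brings aminoacyl-tRNA to the ribosome, 15 and 37.

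The ribosome's own genes had somewhat lower shares: 31 of 78 mitochondrial ribosomal protein genes (39.7%, 28.8 to 51.5) and 31 of 87 cytosolic ones (35.6%, 25.6 to 46.6). Rpl36 had pileups of 35 and 65, and at Rps12 the summit lay 1 bp before the start with 31 and 51. A peak with 31 and 60 is counted for both Fau and Mrpl49, whose starts are close. Nuclear genes of oxidative phosphorylation had 27 of 78 (34.6%, 24.2 to 46.2), with Ndufs7 of complex I at 41 and 39, and glycolysis genes 6 of 16 (37.5%, 15.2 to 64.6), with Pkm, the pyruvate kinase gene, at 25 and 82. Proteasome genes, at 10 of 48 (20.8%, 10.5 to 35), were near the background. The interval of the glycolysis genes also includes the background.

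Regulators and traffic genes were also above the share over all protein-coding genes, with no account of promoter type here. Chromatin regulators had 32 of 93 (34.4%, 24.9 to 45), with Sirt2, a deacetylase, at 31 and 65 and Kmt2e at 26 and 93. Rab GTPases, which direct vesicles, had 18 of 59 (30.5%, 19.2 to 43.9), with Rab8a at 39 (27.7 to 53.3) and 122. Ubiquitin conjugating enzymes and F-box genes had 21 of 73 (28.8%, 18.8 to 40.6). The Zfp zinc finger genes were near the background with 74 of 397 (18.6%, 14.9 to 22.8). Zfp36l1, an RNA-binding protein that destabilises AU-rich mRNAs, had 37 and 112, and Zfp91 had 33 and 137.

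Lists of markers of other cells and tissues held few shared edge peaks or none. None of 10 B cell markers, 10 myeloid markers or 10 NK and dendritic markers held a shared edge peak (95% upper limit of 30.8% each). None of 12 neuronal genes (upper limit of 26.5%) or 13 hepatocyte genes (24.7%) did. The intervals of these short lists, and of the erythroid list (0.253 to 44.5), include the background of 17.3%. Their counts are thus no result about the lists. The erythroid list had 1 of 10, at Tfrc, the transferrin receptor, which dividing cells in general express. Olfactory receptors had 1 of 1106 (0.0904%, 0.00229 to 0.503), with the summit 299 bp past the end of Olfr9, and keratins had 1 of 53, with the summit 816 bp before the end of Krt10. Of the olfactory receptors with a promoter sequence, 935 of 940 were CpG-poor, where the background was 5.5%. A peak shows occupancy, not expression, so these counts name no cells.

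**Figure D3:**
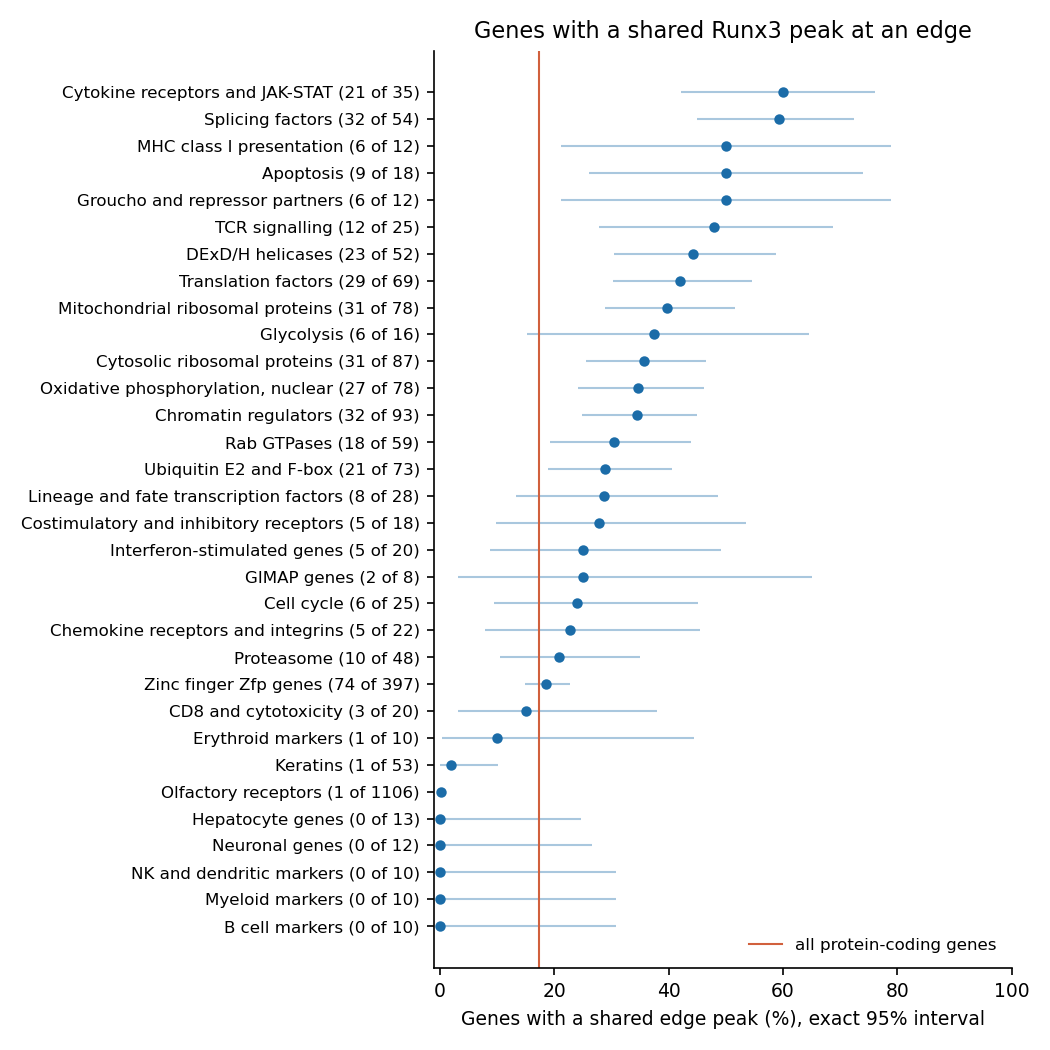
Percent of the genes of each list with a shared Runx3 peak within 1 kb of an edge (x axis), with points for the share, lines for the exact 95% Clopper-Pearson interval, and a vertical line at 17.3% for all protein-coding genes. Cytokine receptor and splicing lists lie at the top with 60% and 59.3%, the class I presentation, apoptosis and Groucho lists follow at 50%, and markers of other tissues lie at or near 0.

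The lists were also counted within each promoter type. Among genes with a CpG-rich promoter the background was 29.9%. There, splicing factors stood at 28 of 45 (62.2%, 46.5 to 76.2), cytokine receptor and JAK-STAT genes at 10 of 18 (55.6%, 30.8 to 78.5) and apoptosis genes at 7 of 13 (53.8%, 25.1 to 80.8). Translation factors stood at 20 of 48 (41.7%, 27.6 to 56.8), cytosolic ribosomal proteins at 20 of 57 (35.1%, 22.9 to 48.9), oxidative phosphorylation genes at 19 of 56 (33.9%, 21.8 to 47.8), transcription factors of T cell fate at 5 of 20 (25%, 8.66 to 49.1) and T cell receptor signalling genes at 1 of 6 (16.7%, 0.421 to 64.1). The intervals of these last 5 and of the apoptosis genes include the background. So do those of chromatin regulators (37.9%, 26.2 to 50.7), Rab GTPases (40.5%, 24.8 to 57.9) and ubiquitin genes (32.6%, 19.5 to 48). The same holds for RNA helicases (43.2%, 28.3 to 59) and mitochondrial ribosomal proteins (40.6%, 28.5 to 53.6). Among genes with CpG-poor promoters, where the background was 5.5%, several lists had a higher share. No intervals were made for these counts, and many of the lists are short, so a higher share alone is no result about a list. A peak was found at 8 of 12 cytokine receptor and JAK-STAT genes, 6 of 13 T cell receptor signalling genes, 5 of 13 costimulatory and inhibitory receptors and 3 of 13 CD8 and cytotoxicity genes. It was also found at 4 of 9 cytosolic ribosomal protein genes and 4 of 9 oxidative phosphorylation genes. Mitochondrial ribosomal protein genes and translation factors had 2 of 5 each, and Zfp genes 19 of 145. Olfactory receptors, with 1 of 935, stood below the background. The split by promoter type was chosen after seeing the data.

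The RUNX word was more frequent in promoters with a shared edge peak. TGTGGT or TGCGGT was searched on both strands of the 300 bases from 250 before to 50 after each start, in 21045 promoter windows of protein-coding genes. At least 1 word was present in 21.4% of all windows, in 39.4% (37.3 to 41.6) of the 2063 windows that held the ChIP summit of a shared edge peak, in 25.1% (21.9 to 28.5) of 678 windows with a peak of ChIP alone, in 15.2% (13.4 to 17) of 1602 with a peak of CUT&RUN alone, and in 19.3% of 15990 without a peak. Among CpG-rich windows the shares were 37.9% with a shared edge peak and 19.6% overall. The words did not contribute alike: TGTGGT was found in 19.4% of windows with a shared edge peak and in 14.7% of all, and TGCGGT, which holds a CpG, in 21.8% and 7.45%. Among CpG-rich windows alone, TGCGGT was found in 22.4% and 11.2%, and TGTGGT in 17.2% and 9.32%. With a further T (TGTGGTT or TGCGGTT) the shares were 12.5% and 6.3%, and 11.4% and 4.89% among CpG-rich windows.

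The share rose with the height of the ChIP peak. It was 22.3% (17.9 to 27.2) of 328 windows at a pileup of 9 or less, close to that of all promoters, 31.7% (28.4 to 35.2) at 10 to 13, 44.2% (40.1 to 48.4) at 14 to 19 and 59.8% (54.9 to 64.5) of 420 windows at 20 or more. Among CpG-rich windows the same steps were 20.6%, 30.9%, 42.2% and 58%. It also rose with the CUT&RUN pileup, from 30.8% at 19 or less through 36% and 46.1% to 51.2% at 60 or more. The highest peaks thus held the word most often in either assay. The lowest bin by ChIP pileup had a share like that of promoters in general.

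**Figure D4:**
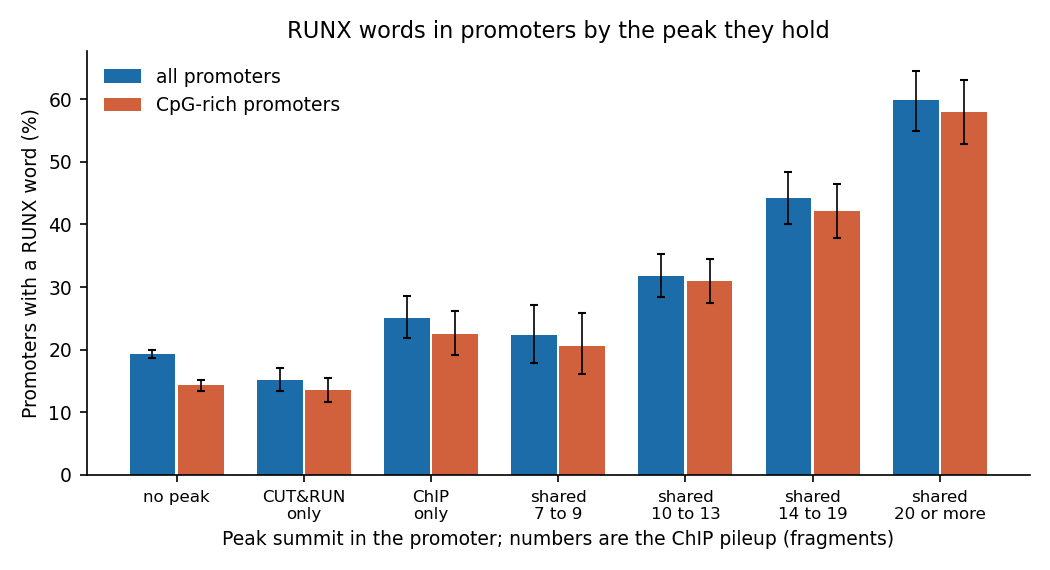
Percent of promoter windows of 300 bases with TGTGGT or TGCGGT on either strand (y axis) by ChIP pileup of the shared edge peak, beside windows with a peak of 1 assay alone or none. Blue bars hold all windows of a group, orange bars its CpG-rich windows, and lines are exact 95% Clopper-Pearson intervals. Blue bars climb from 22.3% in the lowest to 59.8% in the highest pileup group, and windows without a peak stand at 19.3%.

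The words were densest at the summits. Where the 50 bases on both sides of the ChIP summit were inside the window, 28.2% (25.8 to 30.7) of 1352 peaks had a word, against 7.34% at the same positions of all promoters. Around the CUT&RUN summit the share was 25.4% (23.1 to 27.8) of 1370, against 7.33%. Both baselines hold promoters of every CpG content. By ChIP pileup the share around the ChIP summit ran from 12.1% (8.01 to 17.4) of 206 peaks at 7 to 9 to 53.1% (47 to 59.1) of 277 at 20 or more. The density of words was 5.32 per kb in the 20 bp at the ChIP summit and 3.95 per kb at the CUT&RUN summit, against 0.809 per kb over the whole window of all promoters. Around the ChIP summit it was 0.709 per kb at 111 to 130 bp on the upstream side and 0.41 per kb at 110 to 129 bp on the downstream side. The nearest word was a median of 26.5 bp from the ChIP summit and 36.5 bp from the CUT&RUN summit over 725 peaks, and the CUT&RUN summit was the nearer in 291 of 715 peaks without a tie (40.7%, 37.1 to 44.4).

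Peaks with a word within 50 bp of the ChIP summit were higher in both assays. The 381 with a word had median pileups of 17 in ChIP and 37 in CUT&RUN, and the 971 without had 12 and 27. Their summits were also closer, a median of 31 bp apart against 47 bp, although their ChIP peaks were wider, at 383 bp against 302 bp. The distance of 31 bp equals the median of shared peaks inside genes. Of the 100 best-ranked shared edge peaks upstream of a start, 56 had a word this close.

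Other promoter words were searched in the same windows. Each was searched on both strands, and none contains a RUNX word or lies within one, although neighbouring words may share end bases. The ETS word CCGGAA was found in 38.4% of windows with a shared edge peak and in 18.9% of all, and among CpG-rich windows in 39.9% and 30.8%. The SP/KLF word GGGCGG was found in 76.8% and 46.7%, and among CpG-rich windows in 80% and 74.2%. The NF-Y word CCAAT was found in 44.2% and 38.5%, in 26.1% of windows with a peak of ChIP alone and in 56.5% with a peak of CUT&RUN alone. Within 50 bp of the ChIP summit, CCGGAA was present in 18.2% (16.2 to 20.4) of peaks against 7.7% at the same positions of all promoters, GGGCGG in 50.7% (48 to 53.4) against 26.9%, and CCAAT in 20.8% (18.6 to 23) against 18.4%. Around the CUT&RUN summit CCAAT was present in 26.1% (23.8 to 28.5) against 18.5%. The baselines at these positions hold promoters of every CpG content. Of all windows, 48.1% were CpG-rich, against 90.3% of those with a shared edge peak. No baseline of CpG-rich promoters alone was made near the summits, so the part of promoter type there was not tested. The NF-Y word also ran in opposite directions by height: its share went from 52.4% (46.9 to 58) of windows at ChIP pileups of 9 or less to 38.6% (33.9 to 43.4) at 20 or more, and from 36% (31.8 to 40.3) at CUT&RUN pileups of 19 or less to 58.2% (51.9 to 64.3) at 60 or more. The RUNX word, by contrast, was more frequent at the higher pileups of both assays.

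The less frequent words differed in how far their shares held within CpG-rich windows. The CREB/ATF word TGACGT was found in 19% of windows with a shared edge peak and in 8.58% of all (20% and 13.1% among CpG-rich windows), the NRF1 word GCATGCG in 9.69% and 4.48% (10.3% and 7.62% among CpG-rich windows), the E-box CACGTG in 11.7% and 7.91% (12% and 11.4%), and the YY1 word AAGATGG in 8.92% and 6.28% (9.23% and 7%). The TATA word TATAAA went the other way, with 4.7% and 12.7%, and with 4.56% and 5.57% among CpG-rich windows. Among CpG-rich windows the shares of the E-box were thus nearly equal, and those of TATA close.

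**Figure D5:**
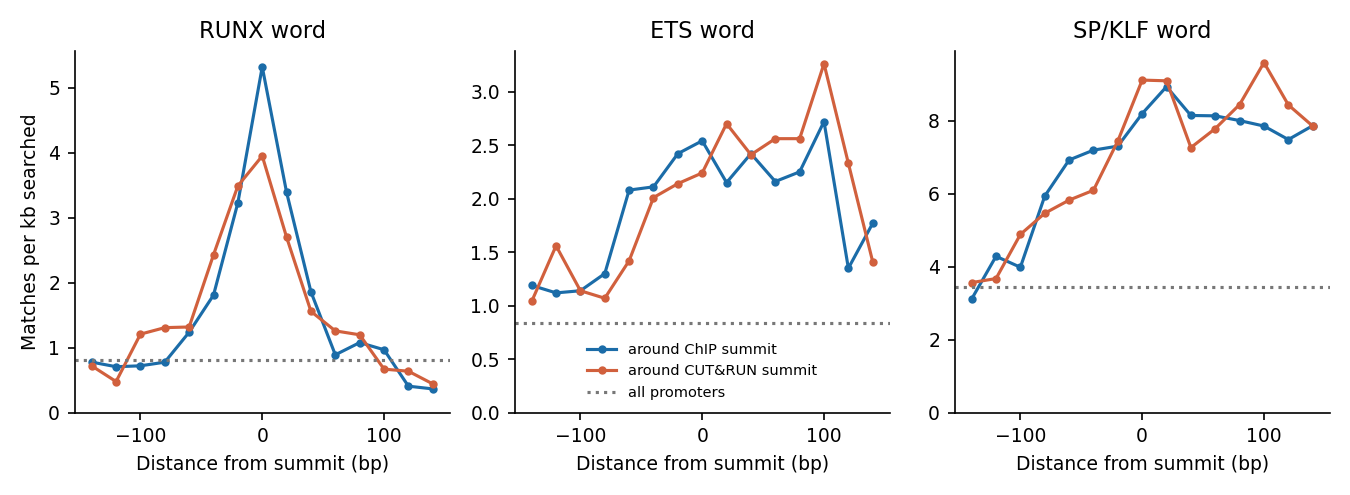
Matches per kb searched (y axis) by distance from the summit in bp along the strand of the gene (x axis), for the RUNX, ETS and SP/KLF words. The curves are around ChIP and CUT&RUN summits of shared edge peaks. A dotted line gives all promoters, CpG-rich and CpG-poor alike. The RUNX curves reach 5.32 per kb at the ChIP summit and 3.95 per kb at the CUT&RUN summit and are at or below the 0.809 per kb of all promoters beyond 110 bp on both sides, while the other curves are broad.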

How the data were processed

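Runx3 occupancy was measured in splenic CD8 T cells by ChIP and CUT&RUN, with 1 library per assay. The submitters' processing notes name Bowtie, mm10 and MACS2. According to the file headers, MACS2 (version 2.1.1.20160309) read fragments from read pairs and allowed 1 copy of each, which removed 80.3% of 48285251 ChIP fragments and 21.4% of 17896991 CUT&RUN fragments. The q limit, per the file headers, was 0.05 for ChIP, with the whole cell extract as control, and 1e-05 for CUT&RUN, with no control. Mean fragment sizes were 115 and 63 bp. Alignment settings are not given in the sources used here. In each row, the deposited lists give the pileup (a coverage signal at the summit), the fold enrichment (a ratio to the expected background) and −log10 p and q values from the authors' peak calling, with 1-based mm10 positions. Each value was used to describe, rank or filter peaks within its own list. Between the lists, only ranks were added or correlated, and pileups were plotted against each other.

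An overlap of 1 bp or more made a peak shared, and the CUT&RUN partner of a ChIP peak was the overlapping peak with the best rank. Genes were the 21631 protein-coding genes of a RefSeq table of GRCm38.p6, which gives spans without strand. Strand and promoter sequence came from the RefSeq promoter table of the same build, which covers 17274 of these genes. Peaks were ranked in each list by q and then pileup. Named are the 10 peaks with the best sum of ranks outside high background, the 3 best at gene ends, up to 5 genes per list (some are not reported here), the genes without a peak where 6 or fewer lack one, genes with 3 peaks, high-background peaks and the 3 peaks on each side of the limit. Cd3e, Cd3g, Cd247, Cd8a, Cd8b1, Cbfb, Tcf7, Tbx21, Eomes, Zbtb7b, Tap1 and Etohd2 were named after their values were seen. The members and the 32 gene lists were chosen with earlier results of these data known. Of the list entries, Mx1 and Mx2 matched no protein-coding gene. Intervals are exact at 95%: Clopper-Pearson for shares and Poisson for pileups. The counting steps were tested on simulated data. Alternatives were other edge distances, stricter overlap, a stricter ChIP q, other RUNX words and windows, the removal of high-background peaks, and promoter type. Analyses used Python 3.11.15, pandas 2.3.3, numpy 2.4.6 and scipy 1.17.1.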

Additional observations from a re-analysis of the deposited data

How the results depend on the processing

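The share of peaks at a start, 95.6%, was 97.8% with summits within 250 bp of an edge, 96.9% within 500 bp, 92.9% within 2 kb and 94.5% with ChIP and CUT&RUN summits within 50 bp of each other. The number of shared edge peaks, 3320, was 1718 when the CUT&RUN peak had to cover 50% of the ChIP peak and 1808 with summits within 50 bp, and the share of genes with a peak, 17.3%, was then 9.2% and 9.59%. These settings keep fewer or more peaks by their construction. It was 2411 within 250 bp, 3794 within 2 kb, and 2429 at a ChIP q of 1e-05 or less. The median distance between summits was 44 to 47 bp under the edge, overlap, q and background alternatives that did not set that distance. The share of promoters with a RUNX word, 39.4%, was 19.4% with TGTGGT alone, 12.5% with TGTGGTT or TGCGGTT, and 20.1%, 28.2% and 34% within 25, 50 and 100 bp of the ChIP summit, where fewer words or bases are searched. Of the 32 gene lists, 23 had a share above the background, 23 within 250 bp, 26 within 2 kb and 21 at the stricter q. These counts use the share alone and not its interval. They include lists near the background, such as the Zfp genes (18.6%, 14.9 to 22.8) and the proteasome (20.8%, 10.5 to 35). Within 2 kb, B cell markers and erythroid markers each stood at 20%, beside 19.6% of all protein-coding genes. With CpG-rich promoters only, an alternative chosen after seeing the data, 16 of 30 lists had a share above 29.9%. Some of these are very short, such as the erythroid markers with 1 of 2. The share of RUNX words was then 37.9%. Depth limits the low end: the lowest ChIP peaks rest on 7 fragments. Assay, cell number, freezing, mice and peak calling changed together, so their parts in any difference between the lists cannot be told apart. No paired analysis was possible because each assay had 1 library and the shares come from no test.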

Other observations

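Of the 116 ChIP peaks off chromosomes 1 to 19 and X, 27 overlapped a CUT&RUN peak, and they were not counted among the shared edge peaks.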
